A study of Mus musculus with 24 samples.

Results

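Gene expression was compared between 6 young and 6 newborn mouse ventricles with deletions in executioner caspase genes, 12 of the 24 arrays of the study, chosen by their sample titles. Executioner caspases are the proteases that cut cell proteins during apoptosis. The question was how the transcripts of a ventricle with these deletions change over the first month of life. The double knockout (KO) mice carried a ubiquitous deletion of one executioner caspase gene and a floxed allele of another, deleted by a Cre recombinase under a promoter and cardiac enhancer of Nkx2.5, which act from the onset of cardiac commitment. The strain is C57/Bl6 in the sample annotation and C57BL/6J in the Methods. The newborn KO hearts were taken at postnatal day 1 to 2 and the young KO hearts at day 30 according to the sample annotation, while the Methods give newborn ages that begin 1 day earlier and young ages that run a few days later. The other 12 arrays, 6 newborn and 6 young wild type (WT) ventricles with intact caspase genes at the same ages, are used here only to show where the KO change differs.

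Cells of the ventricle that never made Nkx2.5 keep the floxed gene in this model, and the series holds no arrays of mice with Cre alone. In separate hearts, the paper reports that Cre expression left the key genes it measured unaffected. The genotype of each array rests on its annotation. By Western blot, the paper found remnant protein of the floxed gene in neonatal KO hearts. The Methods give males and females in equal number in each group, but not the sex of each heart. The values are log2 signals of a whole-transcript array, and a difference of 1 on this scale is a 2-fold difference. Each of 18819 genes was measured by its brightest probe set and fitted with limma over all 24 arrays, with 1 mean per group. A gene was called at an adjusted p under 0.05. The number of arrays limits the precision, and p-values measure the spread between these arrays.

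In the first weeks after birth a mouse heart stops growing by cell division and grows by enlarging its muscle cells. Those cells exchange fetal for adult isoforms of contractile proteins, gain mitochondria, and turn from glucose and lactate to fatty acids as fuel. Thyroid hormone, retinoid and estrogen-related nuclear receptors are known regulators of this program. The tissue is a mixture of cell types, so fewer cells of a type and less RNA per cell cannot be told apart in these arrays.

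Markers of the heart muscle cell were bright in every array, with a mean log2 signal of 14 markers between 11.93 and 12.03 in newborn KO and between 11.80 and 11.94 in young KO arrays. Atrial transcripts were present as well. Myl7, the atrial myosin light chain, lay between 10.25 and 11.64 in the newborn KO arrays. In young KO arrays it lay between 10.26 and 12.10 in 5 hearts and at 5.43 in replicate 3. The mean of 15 atrial markers ran from 8.15 to 9.05 in newborn KO and from 6.37 to 9.79 in young KO arrays, and replicate 3 held the lowest of these values. Among the young WT arrays, Myl7 stood at 12.10 in replicate 2, 10.41 in replicate 5 and between 3.58 and 5.12 in the other 4. The atrial signal of the young arrays therefore varied widely between hearts, and counts from a fit with the atrial mean as a covariate are given beside the lists they moved most and beside the genotype differences.

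Newborn KO replicate 6 also stood apart from its group, with a mean correlation of 0.986 with the other newborn KO arrays, against 0.992 to 0.994 for the rest. Its signals were the highest of the group for Adipoq (6.15 against 3.25 to 3.94), an adipocyte hormone, and for Tnnt3 (7.60 against 4.87 to 5.26), a skeletal muscle troponin. They were also the highest for Ltf (7.47 against 3.80 to 4.69), a granule protein of neutrophils. Without newborn KO 6 and young KO 3 together, a choice made once the data had been seen, 9824 genes were called, against 11110 with all arrays and 11285 with the atrial mean in the fit.

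The newborn arrays numbered 4 stood apart in another way. On the second principal component, the array labelled newborn KO 4 lay at -9.97 (other newborn KO arrays -3.85 to 33.4) and the array labelled newborn WT 4 at 5.26 (other newborn WT arrays -18.7 to -5.15). In 4 genes examined after their values were seen, newborn KO 4 lay outside the range of its own group and within that of newborn WT replicates 1, 2, 3, 5 and 6. Its log2 signal was 10.03 in Ndrg4, a gene of heart muscle growth (8.90 to 9.42 in the other KO arrays, 9.89 to 10.07 in those WT arrays), and 5.08 in Lcn2, an iron-binding protein of inflammation (6.24 to 7.40 and 4.98 to 5.28). It was 6.82 in Hif3a (7.52 to 8.31 and 6.21 to 6.84) and 6.32 in Sh3rf2 (6.63 to 7.10 and 5.95 to 6.36). Newborn WT 4 lay outside its own group in the same genes, at 9.21, 5.96, 7.88 and 6.87, and within the range of the other newborn KO arrays in all of them but Lcn2. Whether both labels are right was not tested, and the arrays were kept as labelled. Without both, 10601 genes were called in KO hearts, 6014 higher and 4587 lower, with 545 and 681 at least 2-fold, and values without them are given beside the genotype differences.

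**Figure D1:**
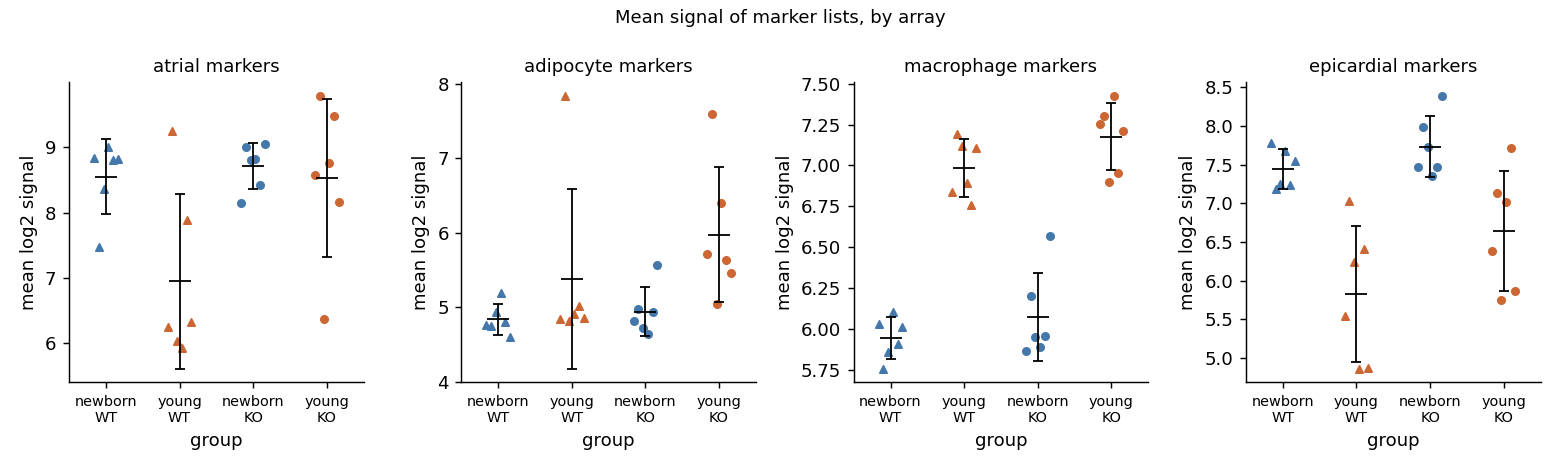
Mean log2 signal (vertical axis) of 15 atrial, 9 adipocyte, 16 macrophage and 12 epicardial markers in each array, by group (horizontal axis, WT as triangles and KO as circles, newborn in blue and young in orange), with the mean and SD of 6 arrays in black. The macrophage means of the 6 young KO arrays all lie above those of the 6 newborn KO arrays, and young KO replicate 3 has the lowest atrial mean of its group at 6.37. The vertical axes do not start at 0.

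Age was the main source of variation. The first principal component of the 24 arrays held 62.3% of the variance, and on it the newborn KO arrays lay between -42.0 and -33.8 and the young KO arrays between 27.0 and 51.0. Of 18819 genes, 11110 (59.0%) were called, 6398 higher (34.0%) and 4712 lower (25.0%) in young KO hearts. At least 2-fold, 554 genes were higher (2.94%) and 659 were lower (3.5%). All 6 young KO arrays lay above all 6 newborn KO arrays for 2994 genes (15.9%) and below them for 2845 genes (15.1%). Counts of list members below are to be read against these shares. The median change over all genes was 0.10 on the log2 scale, which is the value against which the medians of gene lists below are to be read. It became 0.27 when each array was centred on its median and 0.01 after renewed quantile normalization, with a split of 10029 higher and 3011 lower, and of 4249 higher and 4404 lower. The median change also differed with signal. It was -0.08 in the 9410 brighter genes (2657 higher, 3621 lower) and 0.18 in the 9409 dimmer ones (3741 higher, 1091 lower). A list of bright genes therefore has a lower background than a list of dim ones.

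Among genes with a standard symbol whose age groups did not overlap, the largest rise belonged to Tuba8, an alpha-tubulin of heart and skeletal muscle. Its log2 signal ran from 5.47 to 6.76 (median 6.31) in newborn KO and from 10.62 to 11.37 (median 11.19) in young KO hearts, a rise of 4.87 (standard error 0.19, adjusted p = 2.24e-16). Plaat1, a phospholipid-modifying enzyme, rose from a median of 3.05 (2.71 to 3.45) to 7.75 (7.04 to 7.84). Rpl3l, the striated muscle form of a ribosomal protein, rose from 4.43 (4.11 to 4.81) to 9.02 (8.51 to 9.15), a log2 change of 4.50 (adjusted p = 6.69e-18). The median signal of all probe sets lay between 4.27 and 4.38 in the newborn KO and between 4.27 and 4.50 in the young KO arrays. The newborn signals of Plaat1 and Rpl3l lay at or below about that level, and as no detection calls were used, such a change may be understated. The rest of the 12 largest rises of this kind were in Itgb6, Lrtm1, Rxrg, Xirp2, Trim72, Mylk4, Mrgprh, Cd74 and Ces1d, with log2 changes between 3.49 and 4.17. Trim72, which repairs the muscle cell membrane, had the smallest adjusted p of the genes named here (3.78, standard error 0.09, adjusted p = 4.86e-20).

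Among the falls, Tnni1 came first and is described with the contractile genes. Dlk1, a fetal growth regulator, fell from a median of 9.75 (9.48 to 10.49) to 5.17 (4.82 to 5.36), a log2 change of -4.74 (standard error 0.16, adjusted p = 1.45e-17). Capn6, a calpain of embryonic muscle, fell from 9.0 (8.87 to 9.41) to 5.01 (4.18 to 5.99). Aldoc, an aldolase of glycolysis, fell from 8.13 (7.68 to 8.35) to 4.10 (3.89 to 4.55). The young signal of Aldoc lay near the median of all probe sets, with the same limit. Myh7, Igf2bp3, Tmem255a, P4ha3, Cpa1, Bex1, Fbn2 and Hif3a made up the rest of the 12 largest falls, with log2 changes between -4.63 and -3.45.

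**Figure D2:**
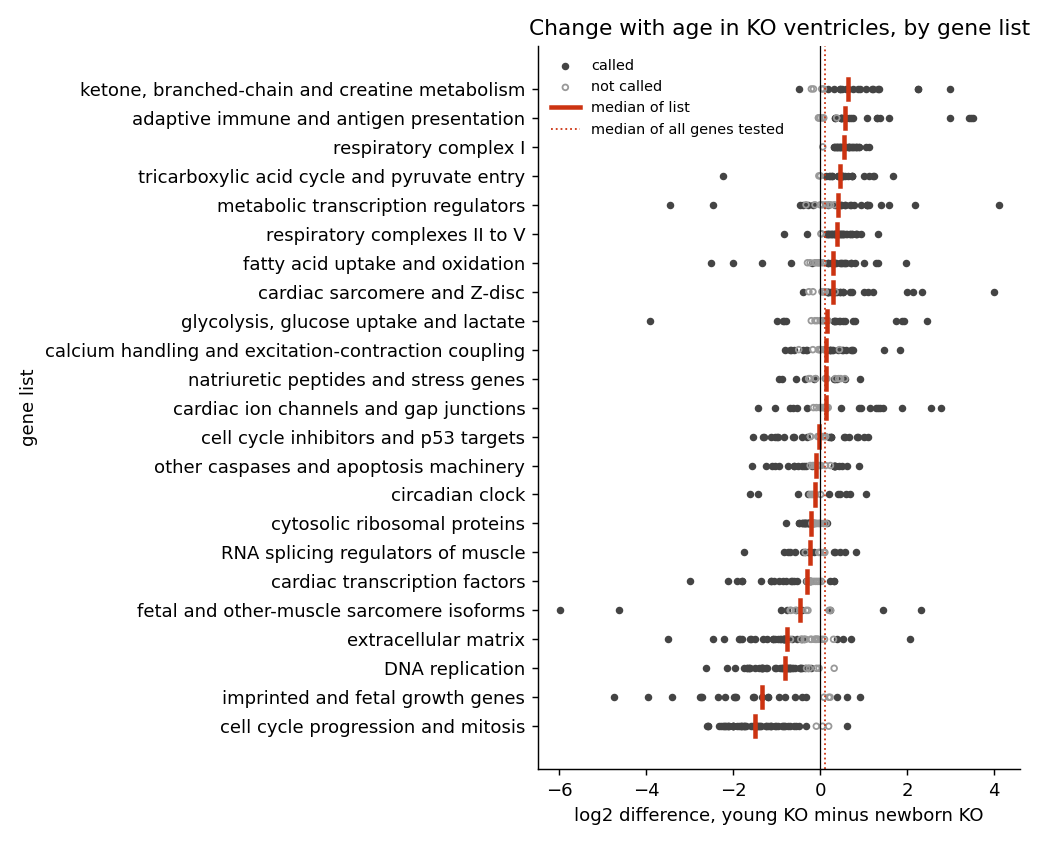
Log2 difference between young and newborn KO hearts (horizontal axis) for each measured member of 23 gene lists (vertical axis), filled where called and open where not, with the median of each list as a red bar and the median of all genes (0.10) as a dotted line. The lists of cell division and fetal growth have the lowest medians, and the highest are those of ketone, branched-chain amino acid and creatine metabolism (0.64), adaptive immunity (0.57) and complex I (0.55), with 57 of 61 cell cycle genes lower and 34 of 35 complex I genes higher.

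The transcripts of contractile proteins changed isoform, while bright transcripts of adult ventricular isoforms moved little. Tnni1, the slow skeletal troponin I of the fetal heart, ran from 11.63 to 11.89 (median 11.79) in newborn KO and from 5.04 to 6.20 (median 5.98) in young KO hearts. It fell by 5.99 on the log2 scale, or 63.6-fold (standard error 0.19, adjusted p = 1.24e-17). Tnni3, the adult cardiac troponin I, was already at 12.25 to 12.44 (median 12.36) in newborn hearts and rose to 12.57 to 12.70 (median 12.64), by 0.29 (standard error 0.05, adjusted p = 3.85e-05). The troponin I arrays of the age groups overlapped for neither gene, but the rise of Tnni3 was not called after renewed quantile normalization. Myh7, the fetal ventricular myosin heavy chain of rodents, fell from a median of 11.67 (11.04 to 11.72) to 6.86 (6.72 to 7.50), a log2 change of -4.63 (standard error 0.20, adjusted p = 1.87e-15). Its adult counterpart Myh6 was not among the genes tested.

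Acta1, the skeletal alpha-actin, rose from a median of 8.32 (7.92 to 9.92) to 10.92 (10.25 to 11.31), by 2.32 (standard error 0.24, adjusted p = 1.82e-08). Actc1, the cardiac alpha-actin, stood at 13.03 (13.01 to 13.05) in newborn and 13.14 (13.01 to 13.20) in young KO hearts, a difference of 0.09 that did not pass (adjusted p = 0.0752). Myl2, the ventricular myosin light chain, stood at 12.37 (12.19 to 12.54) and 12.48 (12.40 to 12.51), with a difference of 0.11 that did not pass either (adjusted p = 0.153). The 2 age groups overlapped for Actc1 and Myl2 and were apart for Acta1. Signals near 13 lie close to the top of the values in these files, which ended at 13.5. Of 17 fetal and other-muscle isoforms, 3 rose and 6 fell, with a median of -0.47 that was -0.29 without newborn KO 6, -0.33 without young KO 3 and -0.001 without both. Besides Acta1, the genes that rose were Myh11 and Acta2, the smooth muscle myosin and actin, at 1.45 and 0.23, with overlapping groups. The call of Acta2 was lost without newborn KO 3 or young KO 1, 2 or 4 and after renewed quantile normalization.

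**Figure D3:**
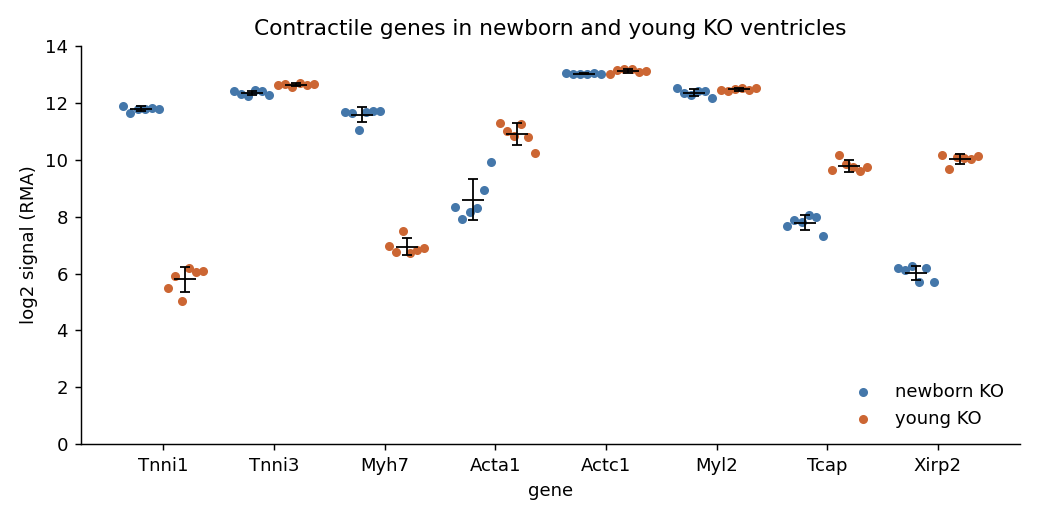
Log2 signal (vertical axis) of 8 contractile genes (horizontal axis) in 6 newborn (blue) and 6 young (orange) KO ventricles, with mean and SD in black. Tnni1 and Myh7 lie lower in every young array, Acta1, Tcap and Xirp2 higher, and Actc1 and Myl2 overlap between the ages. Signals of different genes are not comparable, since each probe set has its own efficiency.

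Of 35 cardiac sarcomere and Z-disc genes, 25 rose and 1 fell, with a median of 0.29. The largest rises in this list were in transcripts of proteins that bind and stabilise the sarcomere. Xirp2, an actin-binding protein of the intercalated disc, rose from 6.15 (5.70 to 6.26) to 10.08 (9.69 to 10.18), by 4.00 (standard error 0.12, adjusted p = 1.84e-18). Myot, a Z-disc protein, rose from 4.65 (4.41 to 5.78) to 7.22 (6.80 to 7.52). Tcap, which caps titin at the Z-disc, rose from 7.85 (7.32 to 8.06) to 9.75 (9.59 to 10.15). All of these genes separated the age groups completely. Cmya5 rose by 2.13, and Lmod2 and Lmod3, which elongate thin filaments, rose by 1.20 and 1.02. Ttn, the giant spring of the sarcomere, rose by 0.73 (standard error 0.06, adjusted p = 8.65e-10) by its brightest probe set but was not called when its probe sets were averaged. Obsl1, a cytoskeletal linker, fell by 0.40 (standard error 0.06, adjusted p = 1.19e-05).

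Channels of the action potential held larger single changes than genes of calcium handling. Of 27 ion channel and gap junction genes, 12 rose and 6 fell, 8 and 2 of them at least 2-fold, with a median of 0.13. Hcn2, a pacemaker channel, rose from a median of 5.10 (4.74 to 5.57) to 7.89 (7.63 to 8.18), by 2.79 (standard error 0.16, adjusted p = 2.79e-13). Kcnd2, a subunit of the fast transient outward potassium current, rose from 6.58 (6.14 to 6.77) to 9.08 (8.89 to 9.28), by 2.54 (standard error 0.12, adjusted p = 6.23e-15). Other subunits of that current moved with it, Kcnd3 by 1.37 and Kcnip2 by 1.13, and the groups of all these genes were apart. Kcnv2, a silent potassium channel subunit, and Kcnk3, a leak channel, rose by 1.89 and 1.45. Kcne1, a subunit of the slow delayed rectifier, fell by 1.03 (standard error 0.14, adjusted p = 1.7e-06). Gja5, the connexin of atria and conduction tissue, fell by 1.42 (standard error 0.41, adjusted p = 0.00526) with overlapping groups, and is itself a member of the atrial marker list. Gja1, the connexin of working myocardium, did not pass (11.52 in newborn and 11.48 in young hearts, adjusted p = 0.962).

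Of 31 genes of calcium handling, 15 rose and 7 fell, with a median of 0.14, against 0.10 for all genes and -0.08 for the brighter ones. The mean signal of this list lay between 8.58 and 8.94 in the KO arrays. Hrc, a calcium-binding protein of the sarcoplasmic reticulum, rose from 8.26 (8.03 to 8.73) to 10.17 (9.92 to 10.37), by 1.84 (standard error 0.12, adjusted p = 2.84e-12). Cacna2d1, a subunit of the L-type calcium channel, rose from 8.73 (8.54 to 8.82) to 10.16 (10.02 to 10.30), by 1.46 (standard error 0.06, adjusted p = 3.36e-15). Both genes separated the ages. The pump Atp2a2 and the release channel Ryr2 rose by 0.29 and 0.60, while Slc8a1, the sodium-calcium exchanger that is prominent in fetal heart, fell by 0.67. Ryr3, a minor release channel, fell by 0.81 (standard error 0.16, adjusted p = 0.000127).

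Transcripts of the respiratory chain rose almost as a whole but by small steps. Of 35 subunits of complex I, 34 rose and 0 fell, between 0.31 and 1.12, with a median of 0.55. Ndufc2 was the member that did not pass (0.06). Of 41 subunits of complexes II to V, 37 rose and 2 fell, with a median of 0.39. Ndufb3, an accessory subunit of complex I, rose from a median of 6.16 (5.98 to 6.66) to 7.36 (7.12 to 7.70), by 1.12 (standard error 0.13, adjusted p = 1.23e-07). Cox7a1, the heart and muscle isoform of a cytochrome oxidase subunit, rose from 11.00 (10.85 to 11.15) to 12.30 (12.23 to 12.46), by 1.34 (standard error 0.07, adjusted p = 1.36e-13). Both genes had age groups that did not overlap, as did 32 of the complex I subunits and 34 of complexes II to V with young above newborn. The 2 genes that fell were Cox6a1, the isoform made outside striated muscle, at -0.83, and Cox8a, the widely expressed isoform, at -0.30. Their muscle counterparts Cox6a2 and Cox8b rose by 0.58 and 0.68. Cox8a was not called after median centring.

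The tricarboxylic acid cycle and the entry of pyruvate followed, with 26 of 29 genes higher and 1 lower (median 0.46). Mpc1, a subunit of the mitochondrial pyruvate carrier, rose from 10.93 (10.84 to 11.09) to 12.21 (11.98 to 12.27), by 1.21 (standard error 0.07, adjusted p = 2.01e-13). Me3, a mitochondrial malic enzyme, rose by 1.66 and Pdp2, which activates pyruvate dehydrogenase, by 1.24. The gene that fell was Pdk3, a kinase that inhibits pyruvate dehydrogenase, from 9.08 (8.87 to 9.17) to 6.95 (5.62 to 7.30), a log2 change of -2.23 (standard error 0.21, adjusted p = 3.87e-09). Its lowest young value belonged to replicate 3.

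Ketone, branched-chain amino acid and creatine metabolism had the highest median of the lists that are not cell type markers, 0.64 over 23 genes, with 18 higher and 1 lower. Ckmt2, the mitochondrial creatine kinase of the sarcomere, rose from 8.66 (8.13 to 8.93) to 11.56 (11.34 to 11.70), a 7.95-fold increase (standard error 0.15 on the log2 scale, adjusted p = 2.4e-14). Oxct1 and Bdh1, which break down ketone bodies, both rose by 2.25. Oxct1 ran from 8.40 to 8.80 in newborn and from 10.71 to 11.07 in young KO hearts. Bdh1 varied more, from 4.46 to 5.45 and from 6.25 to 8.99, and still separated the ages. Pcca, which carries branched-chain and odd-chain carbon into the cycle, rose by 1.36. Gamt, which makes creatine, was the gene that fell, by 0.50 (standard error 0.10, adjusted p = 0.000321).

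Fatty acid genes did not move as 1 block. Of 35 genes of uptake and oxidation, 22 rose and 5 fell, with a median of 0.30, and 10 fell after renewed quantile normalization. Lpl, which releases fatty acids from lipoproteins, rose by 1.00, and Dgat2 and Plin5, which store them as droplets, rose by 1.33 and 1.27. Acsl6, an acyl-CoA synthetase, rose from 3.92 (3.65 to 4.00) to 5.85 (5.61 to 6.11), by 1.97 (standard error 0.10, adjusted p = 2.96e-14). The falls were in 4 enzymes and an inhibitor. Angptl4, which blocks lipoprotein lipase, fell from 9.0 (8.59 to 9.29) to 6.39 (5.28 to 7.40), a log2 change of -2.52 (standard error 0.26, adjusted p = 1.34e-08). Acot1, an acyl-CoA thioesterase, fell by 2.00 and its relative Acot2 by 0.67. Cpt1a, the liver isoform of the carnitine transferase that admits fatty acids to mitochondria, fell from 10.26 (10.20 to 10.33) to 8.94 (8.67 to 9.14), a log2 change of -1.35 (standard error 0.07, adjusted p = 1.83e-14). Eci2, an isomerase of unsaturated fatty acids, fell by 0.20 (adjusted p = 0.0248), a call lost without newborn KO 1, 3 or 5 or young KO 2 or 5. Cpt1b, the muscle isoform, was not among the genes tested.

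Glucose genes split by isoform. Slc2a4, the insulin-responsive transporter GLUT4, rose from 8.91 (8.52 to 9.07) to 10.79 (10.59 to 10.96), by 1.94 (standard error 0.09, adjusted p = 3.25e-15). Slc2a1, the fetal transporter GLUT1, fell from 9.36 (9.04 to 9.41) to 8.45 (8.34 to 8.77), a log2 change of -0.83 (standard error 0.09, adjusted p = 2.64e-08). Neither gene had overlapping groups. Slc2a3 and the lactate exporter Slc16a3 fell by 0.99 and 0.86, and Gyg, the primer of glycogen, fell by 0.79. Hk2, the muscle hexokinase, rose by 1.88, Pfkfb2, which sets phosphofructokinase activity in heart, by 1.74, and Phkg1, a subunit of phosphorylase kinase, by 2.46. In all, 14 of 30 genes of this list rose and 5 fell (median 0.16).

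Among 33 transcription regulators of metabolism, 19 rose and 6 fell (median 0.40). Rxrg, a retinoid X receptor, rose from 5.55 (5.11 to 5.91) to 9.66 (9.39 to 9.90), a 17.2-fold increase (standard error 0.13 on the log2 scale, adjusted p = 6.69e-18). Thrb, a thyroid hormone receptor, rose from 4.60 (4.48 to 4.91) to 6.77 (6.57 to 7.30), by 2.19 (standard error 0.11, adjusted p = 1.58e-14). The age groups of both receptors lay apart. Perm1, Esrrb, Ppara and Klf9, regulators of mitochondrial and fatty acid genes, rose by 1.59, 1.12, 1.08 and 1.08. Hif3a, a regulator of the response to low oxygen, fell from 7.67 (6.82 to 8.31) to 4.33 (3.86 to 4.53), a log2 change of -3.45 (standard error 0.22, adjusted p = 4.16e-12). Myc, a driver of growth, fell from 8.19 (7.06 to 8.54) to 5.61 (5.37 to 5.80), a log2 change of -2.48 (standard error 0.21, adjusted p = 7.63e-10). Ppargc1a, the coactivator of mitochondrial biogenesis, had a difference of 0.05 that did not pass.

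Cell division genes fell. Of 61 genes of cell cycle progression and mitosis, 57 fell, 46 of them at least 2-fold, and 1 rose, with a median of -1.49. Of 48 DNA replication genes, 43 fell, 20 of them at least 2-fold, and 0 rose, with a median of -0.81. Cdk1, the kinase that starts mitosis, ran from 7.18 to 8.53 (median 8.06) in newborn KO and from 4.72 to 5.98 (median 5.44) in young KO hearts, a log2 change of -2.59 (standard error 0.27, adjusted p = 2.46e-08). Bub1, a spindle checkpoint kinase, fell from 6.61 (5.16 to 7.24) to 3.80 (3.01 to 4.49). Ccna2, the cyclin of S phase and mitosis, fell from 9.17 (7.92 to 9.61) to 6.66 (4.68 to 7.17), and its groups and those of Cdk1 and Bub1 were apart. Rrm2, which makes deoxynucleotides, fell by 2.62 (standard error 0.27, adjusted p = 1.22e-08), and the helicase subunits Mcm5 and Mcm6 fell by 1.68 and 1.65. Pttg1, which encodes securin, a regulator of sister chromatid separation, was the gene that rose, from 6.53 (6.04 to 6.64) to 6.87 (6.68 to 7.67), by 0.62 (standard error 0.15, adjusted p = 0.00123). The members that did not pass were Ccnd1, Cenpa and Cenpf in the first list, and in the second Orc1, Timeless, Rpa1, Dut and Gmnn. Orc1 (-0.31, adjusted p = 0.0528) was called as lower without newborn KO 2, 3 or 6, newborn WT 3 or 4 or young KO 3 or 4, and Gmnn (0.32) as higher without newborn KO 5 or young WT 2.

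The promoters of these genes were searched, since the genes moved together. The cell cycle homology region, TTTGAA, is the element bound by the complexes that repress late cell cycle genes in resting cells, and TTTCCCGC and TTTGGCGC are the common forms of the E2F site of DNA replication genes. Both strands of RefSeq promoters (GRCm38.p6, 250 bases before to 50 after the start) were searched. TTTGAA was in 33 of 55 promoters of the cell cycle list (60.0%), against 14.8% of 18155 promoters of all genes tested, 21.4% of promoters of genes that fell at least 2-fold and 10.9% of those that rose. An E2F form was in 13 of 49 promoters of the DNA replication list (26.5%), against 2.25% of all promoters, 5.65% for the falls and 0.365% for the rises. The estrogen-related receptor element TCAAGGTCA was in 0 of 34 promoters of complex I, 2 of 35 of complexes II to V (5.71%), 0 of 35 of the tricarboxylic acid cycle list and 1 of 32 of the fatty acid list, against 0.292% of all promoters and 0.365% for the rises. A match describes letters, not binding. The 100 bases before the start are shown for 3 promoters of the cell cycle list with TTTGAA and for 3 promoters with an E2F form, with the match in capitals on whichever strand it lies. These genes were chosen after their values were seen.
Cdk1 (chr10:69352913-69353012, minus strand): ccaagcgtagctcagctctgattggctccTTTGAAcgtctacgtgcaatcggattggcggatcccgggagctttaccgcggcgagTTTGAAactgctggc
Kif11 (chr19:37376282-37376381, plus strand): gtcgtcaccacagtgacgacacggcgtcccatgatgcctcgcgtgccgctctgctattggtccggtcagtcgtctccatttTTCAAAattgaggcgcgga
Top2a (chr11:99024190-99024289, minus strand): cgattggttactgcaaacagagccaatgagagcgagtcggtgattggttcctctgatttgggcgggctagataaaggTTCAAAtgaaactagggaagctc
Mcm6 (chr1:128359706-128359805, minus strand): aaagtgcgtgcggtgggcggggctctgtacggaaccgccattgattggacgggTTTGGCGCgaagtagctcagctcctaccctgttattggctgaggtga
Cenpm (chr15:82244337-82244436, minus strand): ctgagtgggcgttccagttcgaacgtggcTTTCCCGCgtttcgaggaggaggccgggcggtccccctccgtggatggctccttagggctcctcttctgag
Gins3 (chr8:95633459-95633558, plus strand): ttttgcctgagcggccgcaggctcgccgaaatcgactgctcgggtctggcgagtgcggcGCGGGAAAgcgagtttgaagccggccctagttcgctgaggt

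The Cdk1 promoter holds TTTGAA at 15 and at 71 bases before the start, and Kif11, a spindle motor, and Top2a, which untangles chromosomes, hold it at 19 and 23 bases on the other strand. Kif11 fell from a median of 7.69 (6.42 to 8.23) to 5.31 (4.78 to 5.74), a log2 change of -2.19. Top2a fell by 2.00 on this scale, from 7.53 (6.26 to 8.15) to 5.36 (4.38 to 6.01). Mcm6 fell from 7.17 (6.65 to 7.68) to 5.59 (4.87 to 5.82). Every young array of these genes lay below every newborn array. Cenpm, a centromere protein, fell by 1.71, and Gins3, a part of the replicative helicase, by 0.88.

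Inhibitors of the cell cycle and targets of p53 went both ways, with 11 of 31 higher and 12 lower, against 34.0% and 25.0% of all genes. Their median of -0.03 turned to 0.15 after median centring. Cdkn1c, an imprinted inhibitor of cyclin-dependent kinases, fell from 7.93 (7.60 to 8.44) to 6.40 (6.26 to 6.72), a log2 change of -1.54 (standard error 0.12, adjusted p = 1.71e-10). Cdkn1b fell by 0.63, while Cdkn1a, which encodes p21, rose by 0.66. Fam107a, a growth-inhibitory gene, rose from 5.26 (5.00 to 6.10) to 6.42 (5.94 to 7.26), by 1.10 (standard error 0.25, adjusted p = 0.000664), with overlapping groups. Meis1, a homeobox gene that restrains division of heart muscle cells, fell by 0.60 (standard error 0.09, adjusted p = 2.65e-06). Gadd45a, a p53 target of DNA damage, rose by 1.00.

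The remaining apoptosis machinery did not share a direction. Of 33 other caspases and regulators, 10 rose and 13 fell, against 34.0% and 25.0% of all genes. Their median of -0.10 turned to 0.07 after median centring, where 8 fell. The 4 genes that fell at least 2-fold were Bmf, a BH3-only killer protein, Birc5, the mitotic survivin, and the caspases Casp6 and Casp2. Bmf ran from 7.19 to 7.80 (median 7.40) in newborn KO and from 5.46 to 6.14 (median 5.94) in young KO hearts, a log2 change of -1.58 (standard error 0.16, adjusted p = 7.71e-09). Casp6, an executioner caspase that the model leaves intact, fell from 9.05 (9.0 to 9.27) to 8.03 (7.64 to 8.30), a log2 change of -1.12 (standard error 0.09, adjusted p = 1.48e-10). Casp2 fell from 8.44 (8.37 to 8.63) to 7.51 (7.14 to 7.61), a log2 change of -1.03 (standard error 0.08, adjusted p = 5.39e-11). In each of these genes the age groups were apart. Apaf1 and Casp9, which form the apoptosome, fell by 0.73 and 0.60, and Bcl2l11, which encodes BIM, by 0.95. Fas, a death receptor, rose by 0.90 and Cflar, which blocks its signal, by 0.49.

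Imprinted and fetal growth genes were lower as well, 21 of 27 lower (16 at least 2-fold) and 3 higher, with a median of -1.34. Igf2, the fetal growth factor, fell from 12.26 (12.17 to 12.32) to 10.02 (9.34 to 10.15), a log2 change of -2.35 (standard error 0.10, adjusted p = 2.65e-15). Igf2bp3, an RNA-binding protein of the embryo, fell from 7.34 (7.21 to 7.37) to 3.44 (2.92 to 3.49), a log2 change of -3.97 (standard error 0.11, adjusted p = 1.84e-18) to a level below the median of all probe sets. Mest, an imprinted gene of fetal tissue, fell from 11.65 (11.52 to 11.78) to 8.36 (7.59 to 8.77), and Plagl1, an imprinted zinc finger factor, from 10.18 (10.11 to 10.33) to 7.62 (6.47 to 7.84). The groups of all 4 genes were apart. Ddit4, Impact and the matrix gene Dcn were the members that rose, by 0.90, 0.62 and 0.39. The call of Dcn was lost without newborn KO 1 or 5 or young KO 2, 4 or 5.

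Among 306 microRNA genes, 94 rose (30.7%, against 34.0% of all genes) and 33 fell (10.8%, against 25.0%), and 1 rose and 13 fell at least 2-fold, with a median of 0.13. The array reads the precursor or host transcript, not the mature microRNA. Mature sequences from RefSeq were matched for 12 of these 14 genes, in a search that left out 1 chromosome. For each named gene 1 mature arm is shown. The seed, bases 2 to 8 in capitals, decides which transcripts a microRNA can pair with.
miR-675-5p (chr7:142577112-142577133, minus strand): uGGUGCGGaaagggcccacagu
miR-181b-5p (chr1:137966650-137966673 and chr2:38853845-38853868, plus strand): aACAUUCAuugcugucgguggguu
miR-351-5p (chrX:53053315-53053338, minus strand): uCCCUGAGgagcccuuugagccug
miR-208a-3p (chr14:54949072-54949093, minus strand): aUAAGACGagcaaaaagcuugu
miR-503-5p (chrX:53054027-53054049, minus strand): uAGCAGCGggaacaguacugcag
Mir675, which lies within the imprinted H19 transcript, fell from a median of 11.49 (11.34 to 11.55) to 8.11 (7.37 to 8.47), a log2 change of -3.43 (standard error 0.13, adjusted p = 1.89e-16). Mir181b-1 and Mir181b-2 lie on different chromosomes and give the same mature sequence with the seed ACAUUCA. Mir181b-2 fell from 5.08 (4.98 to 5.26) to 3.21 (3.05 to 3.61), a log2 change of -1.84 (standard error 0.10, adjusted p = 1.16e-13), and Mir181b-1 from 5.63 (4.94 to 5.83) to 4.00 (3.54 to 4.70), a log2 change of -1.46. The neighbours Mir351 and Mir503 on the X chromosome fell by 1.67 and 1.29. Mir208a, which lies within the alpha myosin heavy chain gene, fell by 1.48 (standard error 0.26, adjusted p = 3.62e-05). No young array of these 6 genes rose above the lowest newborn array in the same gene. The microRNA genes were named after their values were seen.

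Of 34 cardiac transcription factors, 22 fell, 9 of them at least 2-fold, and 3 rose, with a median of -0.31. Hey2, a Notch effector of the compact ventricle wall, fell from 10.06 (9.82 to 10.24) to 7.11 (6.42 to 7.50), a log2 change of -3.00 (standard error 0.13, adjusted p = 1.24e-15). Sox4 and Sox11, factors of embryonic progenitors, had log2 changes of -2.12 and -1.91. Tcf21 and Tbx18, factors of the fibroblast and epicardial lineages, fell by 1.80 and 1.79, while Gata4 and Nkx2-5, core factors of heart muscle, fell by 0.25 and 0.33, calls that were lost after median centring. The factors that rose were Tead1, Heyl and Srf, by 0.32, 0.31 and 0.23, and Srf lost its call without newborn KO 2 or 4 or young KO 3. Among 24 splicing regulators 5 rose and 14 fell, a count of falls that became 6 after median centring. Mbnl3, the fetal muscleblind protein, fell from 5.65 (5.48 to 6.08) to 3.99 (3.40 to 4.36), a log2 change of -1.76 (standard error 0.14, adjusted p = 2.3e-10), and Mbnl1, the adult form, rose from 9.85 (9.77 to 9.98) to 10.42 (10.29 to 10.53), by 0.56 (standard error 0.05, adjusted p = 4.39e-09). Rbfox1, a regulator of muscle exons, rose by 0.82.

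Of 49 extracellular matrix genes, 30 were lower, 14 of them at least 2-fold, and 4 higher, with a median of -0.75. Without young KO 3, 22 were lower and 5 higher, with a median of -0.55. Without newborn KO 6 and young KO 3 together, 21 were lower and 5 higher, with a median of -0.46. Fbn2, the fetal fibrillin, fell from 8.72 (8.51 to 9.06) to 5.41 (4.57 to 5.74), a log2 change of -3.51 (standard error 0.16, adjusted p = 6.98e-15). Tnc, a matrix protein of developing tissue, fell from 7.93 (7.46 to 8.49) to 5.46 (5.02 to 6.16), a log2 change of -2.46 (standard error 0.21, adjusted p = 5.56e-10). Postn, a matrix protein of fibroblasts, fell from 11.72 (11.55 to 11.92) to 9.97 (8.55 to 10.61), a log2 change of -1.86 (standard error 0.27, adjusted p = 3.78e-06). The groups were apart for these 3 genes, and the lowest young Postn value was that of replicate 3. Col1a1, the main fibrillar collagen, fell by 0.87 (standard error 0.30, adjusted p = 0.0183) but not without young KO 3, where the change was -0.60. Col8a1, a short-chain collagen, rose from 5.18 (5.14 to 5.46) to 7.38 (6.60 to 7.68), by 2.07 (standard error 0.20, adjusted p = 3.57e-09), and Col15a1, Fbln1 and Dcn rose by 0.70, 0.53 and 0.39. The count of rises was 2 without newborn KO 1 or 5 or young KO 2, 4 or 5, where Dcn and Fbln1 were not called, and the adjusted p of Fbln1 was 0.0457 with all arrays. The mean of 11 fibroblast markers ran from 9.49 to 9.96 in newborn KO and from 8.31 to 10.04 in young KO arrays, and 12 epicardial markers ran from 7.35 to 8.39 and from 5.75 to 7.71, lower in 8 members and higher in 0. The epicardial count was 5 without newborn KO 6 or young KO 6 and 10 with the atrial mean in the fit. Whether the matrix change follows the content of these cells was not tested.

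Immune transcripts rose. Of 26 genes of adaptive immunity and antigen presentation, 20 rose, 9 of them at least 2-fold, and 0 fell, with a median of 0.57. Cd74, the invariant chain of class II antigen presentation, rose from 5.32 (5.17 to 5.57) to 8.88 (8.50 to 9.22), by 3.51 (standard error 0.12, adjusted p = 3.55e-17). The class II genes H2-Aa, H2-Ab1 and H2-Eb1 rose with it by 3.47, 3.42 and 2.97. The class I gene H2-K1 rose by 1.58 and the immunoproteasome gene Psmb9 by 1.30. No newborn array of these genes reached a young array. Of 16 macrophage markers 13 rose and 0 fell (median 1.24), and their mean ran from 5.86 to 6.57 in newborn KO and from 6.90 to 7.43 in young KO arrays. Folr2, a marker of resident macrophages, rose from 4.88 (4.45 to 5.86) to 7.49 (7.07 to 7.88), by 2.44 (standard error 0.19, adjusted p = 1.95e-10). Lyz2, the lysozyme of myeloid cells, rose by 2.06 (standard error 0.15, adjusted p = 5.68e-11). Lyve1 and Cx3cr1, also macrophage markers, did not pass at -0.06 and 0.17, although Cx3cr1 did without young KO 3 (0.25).

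Neutrophil granule genes went the other way, with 7 of 12 markers lower and 0 higher and a median of -0.85. Ngp, a granule protein of immature neutrophils, fell from 5.20 (4.67 to 6.02) to 2.99 (2.70 to 3.25), a log2 change of -2.28 (standard error 0.19, adjusted p = 6.56e-10). Ltf fell by 1.28, and by 0.73 without newborn KO 6, the array with the highest value. The count of 7 was the same without that array, with a median of -0.74. The myeloperoxidase gene Mpo and Elane, which mark earlier stages, had differences of 0.01 and 0.21 that did not pass, although Elane did without newborn KO 1 (0.29).

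Adipocyte markers were uneven. Of 9 markers 5 rose (Ucp1, Retn, Cidec, Adipoq and Lep) with overlapping groups and a median of 1.26, and 0 fell. Ucp1, the uncoupling protein of brown fat, stood between 2.61 and 3.47 in newborn KO hearts and between 3.03 and 9.18 (median 4.59) in young KO hearts, and its call (adjusted p = 0.0494) was lost without any newborn array of either genotype, young KO 2, 4 or 5, or young WT 1, 3, 4, 5 or 6. Without young KO 2, the array with the highest value, the change was 1.53. Adipoq had a call (1.61, adjusted p = 0.0446) that was also lost without young KO 2 (1.14), newborn KO 1 to 5, newborn WT 1 or 5, or young KO 1, 4 or 5, and was 2.06 without newborn KO 6. Cidec lost its call without young KO 2. The number of rises was 4 without newborn KO 6, 2 without young KO 2 and 3 without newborn KO 1 to 5, newborn WT 1 or 5, or young KO 4, and 7 with the atrial mean in the fit. In skeletal muscle markers, Tnnt3 and Actn3 had falls of 0.76 and 0.56, which were -0.33 and -0.29 without newborn KO 6, and Actn3 was then not called. Actn3 also lost its call without newborn KO 2 (-0.55) or young KO 1, 3 or 6 (-0.49, -0.51 and -0.47).

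Other cell type and stress lists moved little as groups. Of 15 atrial markers 2 were higher (Kcnj3 and Clec3a, at 1.33 and 1.86) and 3 lower (Bmp10, Gja5 and Nr2f2, at -3.53, -1.42 and -0.74), with a median of -0.21 that was 0.24 without young KO 3. With their own mean in the fit, 6 were higher and 5 lower. The age groups overlapped for every atrial marker. Bmp10 lay between 8.04 and 9.66 in newborn KO hearts. In young KO hearts it stood at 10.29 in replicate 2, at 8.95 in replicate 5 and between 2.99 and 3.82 in the others. Of 14 heart muscle cell markers 8 rose and 1, Myh7, fell. Of 13 endothelial markers 2 rose and 5 fell, with a median of -0.15 that turned to 0.03 after median centring, and of 12 smooth muscle markers 5 rose and 2 fell (median 0.21). Of 11 fibroblast markers 3 rose and 4 fell (median -0.33), and 5 rose and 2 fell without young KO 3 (median -0.16). With the atrial mean in the fit, 4 rose and 5 fell. Rises numbered 1 without newborn KO 1 or 5 or young KO 2, 4 or 5. Of 12 erythroid markers 1 rose and 2 fell, with 0 rises without newborn KO 6 or young KO 3, and of 7 nerve markers 2 rose and 0 fell. Of 13 skeletal muscle markers 2 rose and 2 fell, and 4 rose and 1 fell without newborn KO 6.

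Of 20 natriuretic peptide and stress genes, 5 rose and 5 fell (median 0.13), against 34.0% and 25.0% of all genes (median 0.10). Nppb, the ventricular natriuretic peptide, stood at 9.15 (7.75 to 9.69) in newborn and 9.73 (9.41 to 10.61) in young KO hearts, with a rise of 0.90 (standard error 0.32, adjusted p = 0.0186) that was 0.66 without newborn KO 4 and 0.76 without young KO 3 and not called in either case. Nppa, the atrial natriuretic peptide, did not pass (-0.11, adjusted p = 0.833). The count of falls was 2 without young KO 3 and that of rises 3 without newborn KO 4. Of 16 clock genes 6 rose and 4 fell, with a median of -0.12 that turned to 0.06 after median centring and 0.02 after quantile normalization. Per3 and Per2, repressors of the clock, fell by 1.61 and 1.44, and Arntl, its activator, rose by 1.05. The hour of collection is not given for each sample. Of 38 cytosolic ribosomal proteins 24 fell and 1 rose, with a median of -0.21, and the falls numbered 6 after median centring. Rpl3 fell from 11.43 (11.33 to 11.59) to 10.64 (10.57 to 10.89), a log2 change of -0.79, while its muscle relative Rpl3l rose.

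The change in KO hearts was close to the change in WT hearts, gene by gene. Over 18819 genes the log2 changes of the genotypes, which share no arrays, had a Pearson correlation of 0.930, a description across genes that are not independent. Of the 1213 genes changed at least 2-fold in KO hearts, 1055 were also changed at least 2-fold in the same direction in WT hearts, which is 87.0% of the KO and 71.0% of the 1485 WT genes, and 0 were changed in opposite directions. The direct test, KO change minus WT change, called 2 genes (0.0106%). At an unadjusted p under 0.05 it counted 2427 genes, 2043 with a more positive change in KO and 384 with a more negative one. The difference was positive for 13139 of all 18819 genes, with a median of 0.08, and the median change of all genes was 0.10 in KO and 0.002 in WT hearts. After median centring it was positive for 9390 genes. The adjusted count was 24 without young KO 3, 17 without young WT 2, 10 without young WT 5, 6 without young KO 2, 4 without newborn WT 5, 3 without newborn KO 1, 3 or 6, newborn WT 4 or 6 or young WT 1, and 1 without newborn KO 4 or 5, newborn WT 1, 2 or 3, young KO 1 or 6 or young WT 4 or 6. It was 16 with the atrial mean in the fit. The 95% interval of the difference had a median width of 0.28 to either side on the log2 scale, without adjustment for the number of genes.

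**Figure D4:**
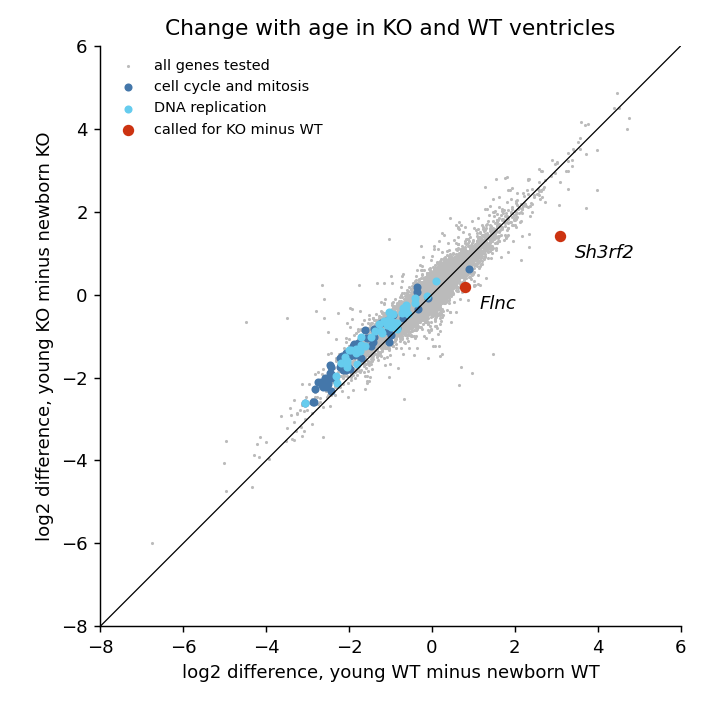
Log2 change with age in KO (vertical axis) against WT ventricles (horizontal axis) for 18819 genes, with the line of equal change. Cell cycle (dark blue) and DNA replication genes (light blue) lie mostly above the line, 59 of 61 and 48 of 48 with a less negative or more positive change in KO, as had 13139 of all 18819 genes. After median centring the counts were 55, 46 and 9390. Sh3rf2 and Flnc (red) were the genes called for a difference.

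Sh3rf2, a ubiquitin ligase scaffold that opposes stress kinase signalling, was 1 of the 2. It ran from 6.32 to 7.10 (median 6.66) in newborn KO and from 7.60 to 8.77 (median 8.07) in young KO hearts, and from 5.95 to 6.87 (median 6.29) in newborn WT and from 9.05 to 9.71 (median 9.44) in young WT hearts. All young arrays were above all newborn arrays in each genotype, and the young KO arrays were below the young WT arrays. The rise was 1.41 in KO (standard error 0.17, adjusted p = 2.49e-07) and 3.09 in WT, a difference of -1.68 (standard error 0.25, adjusted p = 0.00789). The difference was -1.55 with the atrial mean in the fit and between -1.81 and -1.58 with any 1 array left out, and it was called in each of these fits. Without both newborn arrays numbered 4, which Sh3rf2 itself served to set apart, the difference was -1.86, with rises of 1.34 in KO and 3.20 in WT.

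Flnc, the filamin of the Z-disc, was the other gene. It ran from 9.59 to 9.85 (median 9.71) in newborn KO and from 9.67 to 10.06 (median 9.89) in young KO hearts, and from 9.42 to 9.73 (median 9.62) and 10.26 to 10.58 (median 10.36) in WT hearts. The KO groups overlapped and the WT groups did not. Its rise was 0.17 in KO (standard error 0.07, adjusted p = 0.0437) and 0.79 in WT, a difference of -0.62 (standard error 0.10, adjusted p = 0.0303). The difference was -0.57 with the atrial mean and between -0.65 and -0.57 with any 1 array left out, but it was not called without newborn KO 4 or 5, newborn WT 1, 2 or 3, young KO 1, 4 or 6, or young WT 4 or 6, nor after median centring. Without both newborn arrays numbered 4 it was -0.61 and called. The rise in KO itself was not called without newborn KO 1, 2, 3 or 6 or young KO 1, 3 or 5.

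**Figure D5:**
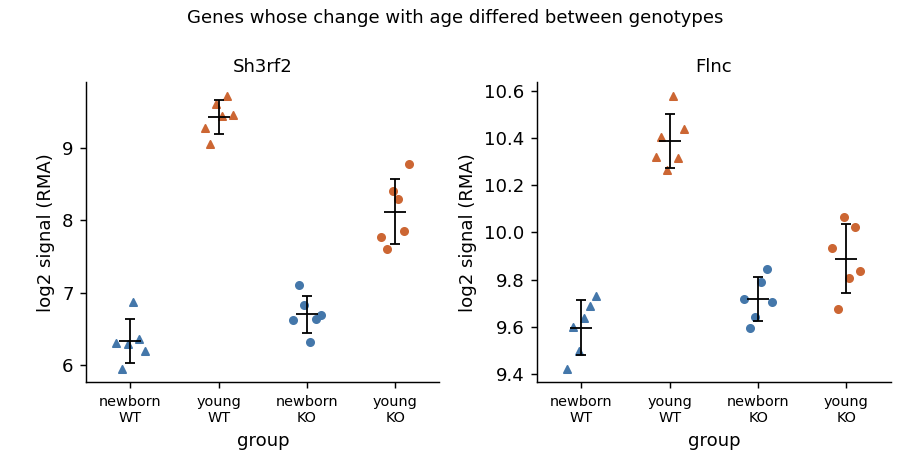
Log2 signal (vertical axes, not starting at 0) of Sh3rf2 and Flnc in 6 arrays per group (horizontal axis, WT as triangles, KO as circles, newborn in blue and young in orange), with mean and SD in black. The young KO arrays of Sh3rf2, between 7.60 and 8.77, lie above the newborn KO arrays and below the young WT arrays.

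Some lists had different medians in the genotypes without a member that passed the test of the difference over all genes. The cell cycle list had a median of -1.49 in KO and -2.03 in WT, DNA replication -0.81 and -1.17, and the extracellular matrix -0.75 and -1.07. The mean signal of the cell cycle list ran from 6.1 to 7.4 in newborn KO and from 6.8 to 7.8 in newborn WT arrays. In young arrays it ran from 5.0 to 5.7 and from 5.3 to 5.9. DNA replication ran from 6.1 to 7.0 and from 6.4 to 7.2 in newborn, and from 5.4 to 5.8 and from 5.5 to 5.8 in young arrays. Both lists thus started lower in newborn KO hearts, with ranges that overlapped those of WT. For the atrial markers the median changes in KO and WT were -0.21 and -1.03, and for the neutrophil markers -0.85 and -0.25. With the atrial mean in the fit, the median difference between genotypes went from 0.46 to 0.10 for the matrix list. For the atrial markers, whose own mean this is, it went from 1.11 to -0.04, and for the neutrophil markers from -0.30 to -0.21. For the cell cycle list it was 0.46 and then 0.48, and for DNA replication 0.36 and then 0.40. The cell cycle difference was 0.72 without the newborn arrays numbered 4, 0.29 without newborn KO 6 and 0.37 after median centring. For DNA replication these values were 0.56, 0.28 and 0.28. The respiratory lists had nearly the same medians, 0.55 and 0.56 for complex I and 0.39 and 0.37 for complexes II to V. For single cell cycle genes, the log2 change of Cdk1 was -2.59 in KO and -2.85 in WT, and that of Cdc6, which loads the replicative helicase, was -0.41 and -1.05, with a KO call that was lost without newborn KO 3 or 4 or young KO 4 or 5. Without the newborn arrays numbered 4 of both genotypes, 79 genes were called, 51 more positive and 28 more negative in KO. They held 0 of the cell cycle list and 3 of DNA replication, which were Cdc6, Prim1, a subunit of the primase, and Pcna, the clamp of the replication fork. Mitotic genes outside the list were among them as well, such as Sgo1, a guardian of sister chromatid cohesion (difference 1.12), Ercc6l, a helicase of the spindle checkpoint (0.95), and Cenph, a centromere protein (0.87). The more negative differences included Hif3a (-1.22), Myc (-0.85), Xirp2 (-0.83) and Ttn (-0.48). Ndrg4, with a difference of -0.72, had log2 changes of -0.27 in KO and 0.45 in WT hearts. The genes of these 79 that are named here were chosen after their values were seen. Hif3a, Ndrg4 and Sh3rf2 also served above to set the arrays numbered 4 apart. Both arrays were set apart for lying towards the other genotype, so leaving them out can widen genotype differences in other genes as well. None of the 79 calls without those arrays is therefore independent support.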

How the data were processed

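Ventricular RNA of 24 hearts was hybridised to whole-transcript arrays, 1 array per heart. The authors deposited log2 signals, obtained by RMA, which corrects the background, quantile-normalizes the arrays and summarises probes. The submitters' processing notes name R 2.15, oligo 1.22 and limma 3.14. Slide, scan date and hour of collection are not given in the sources used here, and sex was not in the model. The targeted genes are not reported here.

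Of 35017 probe sets, 21118 carried 1 gene symbol, 1735 several and 12164 none in the platform annotation, and 21085 of the first were matched by Entrez identifier. Probe sets with 1 symbol were kept, and the brightest over all arrays stood for each of 18819 genes, of which 1371 had several. The files held log2 values from 1.07 to 13.5, and 0 of 276 pairs of arrays were identical. Groups and replicate numbers came from the sample titles. Changes were tested with limma 3.58.1 in R 4.3.3 on 4 group means over 24 arrays, with Benjamini-Hochberg adjustment over all genes, and the difference between genotypes as the interaction of the same fit. The code was tested on simulated data.

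The members and lists were chosen with earlier results of these data known, so they are no independent support. Of 979 list entries 889 were measured. The text names the 12 largest rises and falls without overlap, up to 4 called members of each list by size of change, the fetal and adult contractile isoforms, members of counts of 5 or fewer, and genes called for a genotype difference. Genes without a standard symbol were not named among the largest changes. Further members were named after their values were seen: Myl7, Lmod2, Lmod3, Ttn, Kcnd3, Kcnip2, Kcne1, Gja1, Atp2a2, Ryr2, Slc8a1, Ndufc2, Cox6a2, Cox8b, Lpl, Dgat2, Plin5, Slc2a4, Pfkfb2, Perm1, Esrrb, Ppara, Klf9, Ppargc1a, Cdk1, Kif11, Top2a, Mcm5, Mcm6, Cenpm, Gins3, Cdc6, Prim1, Pcna, the replication and cell cycle genes that did not pass, Cdkn1a, Cdkn1b, Fam107a, Meis1, Gadd45a, Casp6, Casp9, Apaf1, Bcl2l11, Fas, Cflar, Igf2, Gata4, Nkx2-5, Nppa, Nppb, Ndrg4, Lcn2, Sgo1, Cenph, Ercc6l, H2-K1, Psmb9, Lyve1, Cx3cr1, Mpo, Elane and the microRNA genes.

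Alternatives were a filter below the 30th percentile of signal, a test against a 1.5-fold change, a 1.5-fold cutoff, median centring, renewed quantile normalization, an adjusted p under 0.01, trended robust moderation, array weights, a replicate block, the mean of all probe sets, the 12 KO arrays alone, and each array left out. Leaving out newborn KO 6 with young KO 3, and the atrial mean as a covariate, were added after the data were seen. Promoter and microRNA sequences came from RefSeq (GRCm38.p6), and 14749 of 18819 genes had a promoter.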

Additional observations from a re-analysis of the deposited data

Results flagged for a closer look

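In 538 groups of 6 arrays of the named genes, 34 held an array whose gap to its nearest neighbour was, as a share of the group's range, above Dixon's 95% critical value, where chance gives about 1 in 20. Newborn KO replicate 6 was the highest of its group in Tnnt3 (0.8561 of the range), Adipoq (0.7633), Ltf (0.7567), Actn3 (0.7249), Ces1d (0.714) and Cdh19 (0.6598), and the lowest in Hk2 (0.7732), Dut (0.719), Acsl6 (0.6763), Ppara (0.6658) and Rpa1 (0.6333). Young KO replicate 3 was the lowest in Igf2bp3 (0.7912), Rora (0.7272), Pdk3 (0.7251), Myl7 (0.7247), Mcm6 (0.7008) and Postn (0.638), and the highest in Myh7 (0.6813). Newborn KO replicate 4 was the lowest in Fas (0.8882), Slc2a1 (0.7646) and Acot1 (0.6811) and the highest in Col8a1 (0.7536). The widest gap was that of Myh7 in newborn KO replicate 3 (0.8988), at a log2 signal of 11.04 against 11.65 to 11.72 in the other arrays. Single arrays also stood apart for Pfkfb2 (young KO 2, low, 0.7916), Gadd45a (young KO 6, high, 0.7065), Xirp2 (young KO 2, low, 0.6961), Slc8a1 (young KO 2, low, 0.6882), Mir208a (young KO 4, high, 0.673), Flt1 (newborn KO 5, high, 0.6623), Cpa1 (young KO 6, high, 0.6394), Mir675 (newborn KO 5, low, 0.6363), Acot1 (young KO 1, low, 0.6361), Rgs5 (newborn KO 1, low, 0.6354) and Thrb (young KO 4, high, 0.6299).

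The change with age differed between the genotypes for Sh3rf2, by -1.6796 on the log2 scale (standard error 0.25, limma adjusted p = 0.00789, range over alternatives 0.000538 to 1), with the young KO arrays below the young WT arrays in 6 of 6 hearts. It differed for Flnc by -0.6163 (standard error 0.10, limma adjusted p = 0.0303, range over alternatives 0.00801 to 1), with a call that several single arrays and median centring ended.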

How the results depend on the processing

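The total of 11110 genes changed with age in KO hearts was 1363 when tested against a 1.5-fold change and 3235 at a fold change of at least 1.5. The 6398 higher genes became 3719 without genes under the 30th percentile of signal, 644 against a 1.5-fold change, 1433 at a 1.5-fold cutoff, 10029 after median centring and 4249 after renewed quantile normalization. The 4712 lower genes became 719 against a 1.5-fold change, 1802 at a 1.5-fold cutoff and 3011 after median centring. With any 1 array left out, the total ran from 10315 to 11209, higher genes from 5544 to 6556, lower genes from 4386 to 4954, and genes changed at least 2-fold from 507 to 572 and from 597 to 723. The test of KO change minus WT change, with 2 genes, gave 7 with the low-signal filter, 0 in limma's test against a 1.5-fold change (2427 genes at an unadjusted p under 0.05 in the ordinary test), 1 after median centring, 4 after quantile normalization, 9 with trended robust moderation, 15 with array weights, 1 at an adjusted p under 0.01, 79 without the newborn arrays numbered 4, 13 without newborn KO 6 and young KO 3, 16 with the atrial mean, and 1 to 24 with any 1 array left out. The cause was not tested. Of the named genes that were called, 134 kept their call under every alternative and 115 lost it under at least 1. Ckm turned to -0.0101 after quantile normalization and Furin to 0.0317 after median centring, neither of them called. Replicate numbers did not consistently pair the ages: deviations of newborn and young KO arrays of the same number correlated between -0.1156 and 0.3195. Only newborn KO 2 correlated best with the young KO array of its own number. Pairing of KO with WT arrays by number was not tested. With the number as a replicate block the count was 11223 for KO maturation and 1 for the genotype difference, where Flnc was not called (adjusted p = 0.0766, range over alternatives 0.00801 to 1). Signal near the ends of the array's range and 6 arrays per group limit what small changes can be seen.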
